A study of Rattus norvegicus with 9 samples.

Results

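The genes described here encode 10 receptors for extracellular nucleotides, namely the ion channels P2rx1, P2rx2, P2rx3, P2rx4, P2rx5, P2rx6 and P2rx7 and the G protein-coupled receptors P2ry1, P2ry6 and P2ry14. They were taken by symbol from the 30507 rows of the gene table, each of the 10 stood on 1 row, and all 10 passed the filter on low counts in each comparison. The libraries came from whole T9-T11 spinal cord tissue of wild-type female Sprague-Dawley rats, 8 weeks old when obtained, with 3 rats in each of 3 groups and tissue collected at 35 days post-injury (dpi). Sham rats carried no contusion; the labels record no treatment for them, and the methods of the study describe exposure of the cord by laminectomy. SCI rats had a T10 contusion and a plug on the neck without an electrode. SCI + SCS rats had the same contusion and an epidural electrode, through which high-frequency spinal cord stimulation at 10 kHz was given for 2 h each day from 1 dpi. The SCI and SCI + SCS groups therefore differed in the implanted electrode as well as in the current, and these cannot be told apart; rats with an electrode and no current were not analysed here. The methods also state that rats were kept for later experiments by their paw withdrawal threshold. The questions were which receptors differed after contusion and which differed between stimulated and unstimulated injured cords.

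ATP and related nucleotides leave damaged, active or inflamed cells and act on nearby cells. P2X receptors are trimeric channels opened by ATP that let sodium and calcium into the cell, while P2Y receptors signal through G proteins and differ in the nucleotide they prefer. In the spinal cord P2X4, P2X7 and P2Y6 are best known from microglia and macrophages, P2X3 and its partner P2X2 from sensory neurons that carry pain signals, and P2X2, P2X5 and P2X6 from neurons more widely.

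The positions in the gene table are credited to build mRatBN7.2, which the processing notes of the submitters name. P2rx4 and P2rx7 are neighbours on chromosome 12, at 33844396 to 33862253 and at 33879745 to 33934619, both on the minus strand and 17.5 kb apart. P2rx1 and P2rx5 stand 144.2 kb apart on chromosome 10. P2rx3 on chromosome 3 overlaps Ssrp1, and P2ry14 on chromosome 2 overlaps Med12l, each on the opposite strand. Whether counting used strand is not given in the sources used here, so reads of these pairs may be mixed. The other 8 receptors overlapped no gene. The promoters of P2rx4 and P2rx7 are printed because these neighbours gave different results after contusion, and that of P2rx6 because it fell. Sequences are from RefSeq on build GRCr8, and 7 of the 10 genes matched that table. Each runs from 250 bases before the start site to 50 bases after it, at chr12:39523040-39523339, - strand for P2rx4, chr12:39594873-39595172, - strand for P2rx7 and chr11:96954154-96954453, - strand for P2rx6. Capitals mark GAGGAA on either strand, the core that the myeloid factor PU.1 and other ETS factors can bind.
P2rx4: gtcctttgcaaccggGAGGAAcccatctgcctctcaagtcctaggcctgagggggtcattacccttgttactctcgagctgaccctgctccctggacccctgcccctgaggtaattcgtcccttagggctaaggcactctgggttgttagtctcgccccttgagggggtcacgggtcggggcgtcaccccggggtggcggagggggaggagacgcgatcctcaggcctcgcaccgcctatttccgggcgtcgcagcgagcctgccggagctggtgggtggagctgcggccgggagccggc
P2rx7: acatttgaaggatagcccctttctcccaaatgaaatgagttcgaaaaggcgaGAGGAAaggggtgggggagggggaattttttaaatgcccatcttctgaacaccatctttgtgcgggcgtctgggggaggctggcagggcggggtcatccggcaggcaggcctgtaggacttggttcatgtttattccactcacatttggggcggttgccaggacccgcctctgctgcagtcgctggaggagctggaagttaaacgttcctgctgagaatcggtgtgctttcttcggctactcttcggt
P2rx6: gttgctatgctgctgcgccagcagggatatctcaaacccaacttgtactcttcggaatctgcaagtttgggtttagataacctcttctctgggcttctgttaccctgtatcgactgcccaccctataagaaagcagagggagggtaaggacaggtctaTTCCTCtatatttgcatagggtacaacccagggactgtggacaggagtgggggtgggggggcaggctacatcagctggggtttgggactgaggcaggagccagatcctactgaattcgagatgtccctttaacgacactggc
GAGGAA stood once in each of these promoters, 235 bases before the start site of P2rx4, 198 before that of P2rx7 and, on the opposite strand, 92 before that of P2rx6. It stood once in the promoter of P2rx1 and was not among the letters of those of P2rx3, P2ry1 and P2ry14. Of 33469 rat promoters of this length, 27.6% held it. The GC box GGGCGG stood in 33.1% of all promoters and 2 times in that of P2rx7, at 113 and 50 bases before the start site, and the TATA box TATAAA and the paired motif of interferon regulatory factors stood in none of the 3 printed and in 14.2% and 3.92% of all promoters. All 4 motifs were searched on both strands, and a match is a description of letters only.

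The libraries held between 62844376 and 88358570 counts on genes, and 3 counts corresponded to between 0.034 and 0.0477 CPM (counts on the gene scaled to the library total). No pair of libraries of a group agreed within counting noise. Markers of the spinal cord were present in every library, but 1 library stood apart for pain-sensing neurons. In Sham replicate 2, the dorsal root ganglion markers Scn10a and Scn11a, sodium channels of nociceptors, were at 55.4 and 46.5 CPM, while the other Sham libraries had at most 0.847 CPM of Scn10a and 0.709 CPM of Scn11a. Avil was at 97.7 CPM in that library and at 2.15 and 2.95 CPM in the other Sham libraries. SCI + SCS replicate 3 had a smaller excess, with 3.37 CPM of Scn10a. Skeletal muscle markers summed to 3782 CPM in SCI replicate 1 and 1161 CPM in SCI replicate 3, against 144 to 253 CPM in the other 7 libraries. Pygm alone made up most of the sums in those 7 libraries, at 133 to 207 CPM. Ckm was at 540 and 111 CPM in SCI replicates 1 and 3 and at most 6.55 CPM in the other 7. Results that rest on Sham replicate 2 are given with and without it.

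Levels per library are in CPM, normalized by TMM over 9 libraries, and in the text the 3 values of a group follow the replicate numbers. Levels of different genes are set side by side only in FPKM, which divides by gene length. In the Sham group the highest mean FPKM of the 10 receptors was that of P2rx4, at 8.55 ± 3.52 (SD, n = 3), followed by P2rx6 at 6.52 ± 2.12, and their libraries overlapped. P2rx1 had the lowest mean, at 0.310 ± 0.174 FPKM, and its libraries overlapped those of P2rx3, whose mean was set by Sham replicate 2. In the SCI group P2rx4 was at 19.96 ± 3.52 FPKM and stood above the libraries of every other receptor, with P2ry6 next at 9.81 ± 2.43 FPKM. P2rx3 was then the lowest at 0.294 ± 0.117 FPKM, and its libraries overlapped those of P2rx5 at 0.389 ± 0.0812 FPKM. In the SCI + SCS group the leaders were again P2rx4 at 15.7 ± 5.11 FPKM and P2ry6 at 8.999 ± 1.098 FPKM, and the libraries of each overlapped those of P2ry12.

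**Figure D1:**
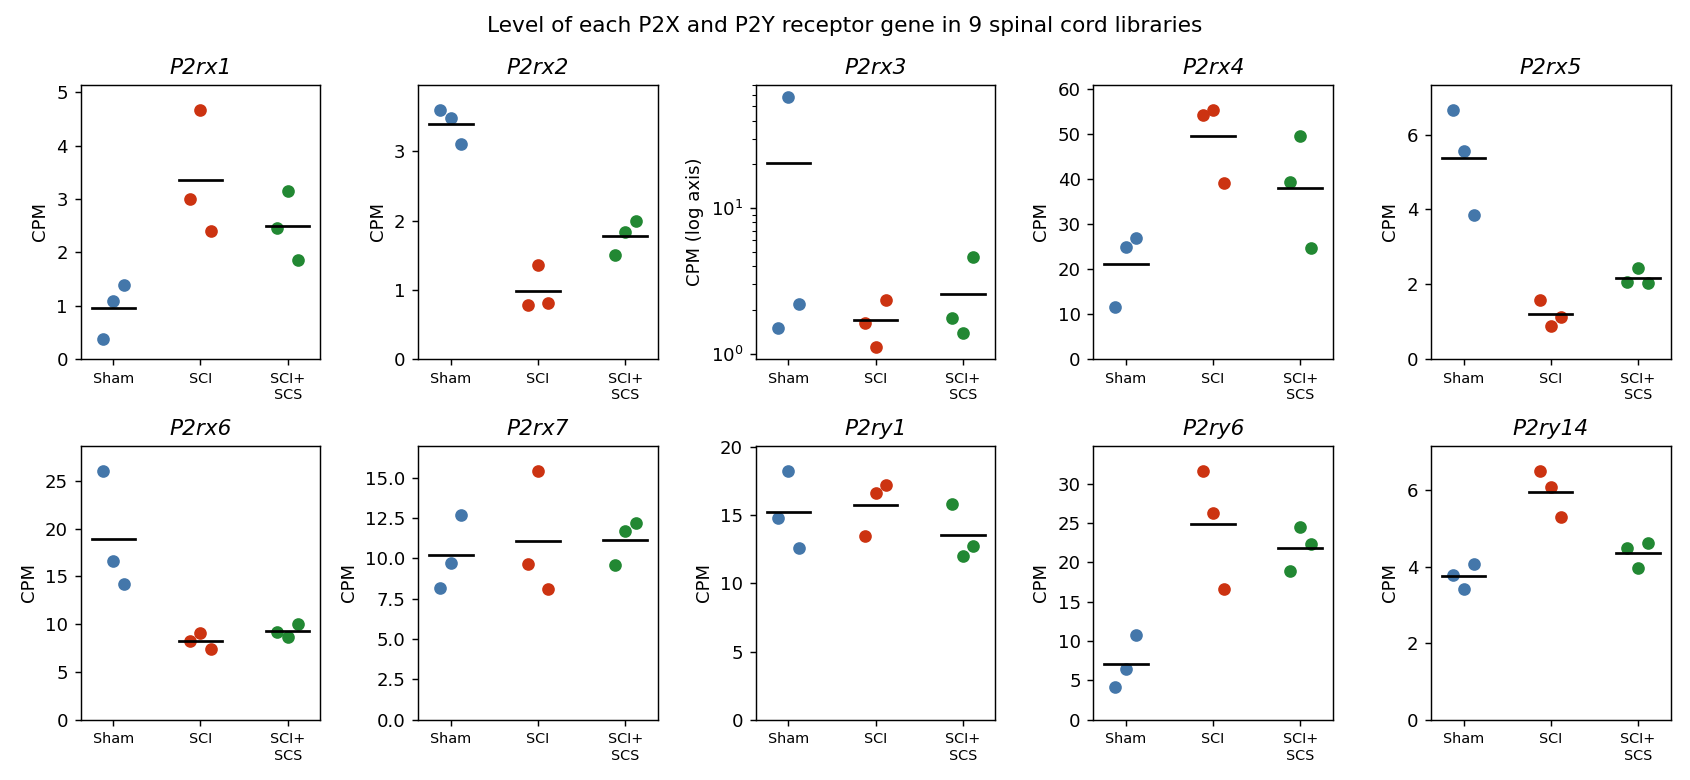
Level of each of the 10 receptor genes in CPM (vertical axis, linear from 0 except the log axis of P2rx3) in the 3 libraries of each group (points, in replicate order) with the group mean (line). The SCI libraries of P2rx1, P2rx4, P2ry6 and P2ry14 lie above all Sham libraries, those of P2rx2, P2rx5 and P2rx6 lie below them, and 1 Sham library sets the P2rx3 mean.

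After contusion, 4 of the 10 receptors rose (P2rx1, P2rx4, P2ry6 and P2ry14), 3 fell (P2rx2, P2rx5 and P2rx6) and 3 did not pass the test (P2rx3, P2rx7 and P2ry1). A receptor passed at a Benjamini-Hochberg adjusted p under 0.05 in edgeR, over the 17822 genes tested; of all these genes 24.3% passed as higher and 25% as lower. The median log2FC of the receptors was 0.07, and that of all genes 0.015. Of the 7 that passed, 6 also had a |log2FC| over 1, P2ry14 being the exception, as had 26.9% of all genes tested. The libraries of SCI and Sham did not overlap for 7 receptors, as for 63.6% of all genes. In bulk tissue, fewer cells of a type and less RNA per cell cannot be told apart.

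**Figure D2:**
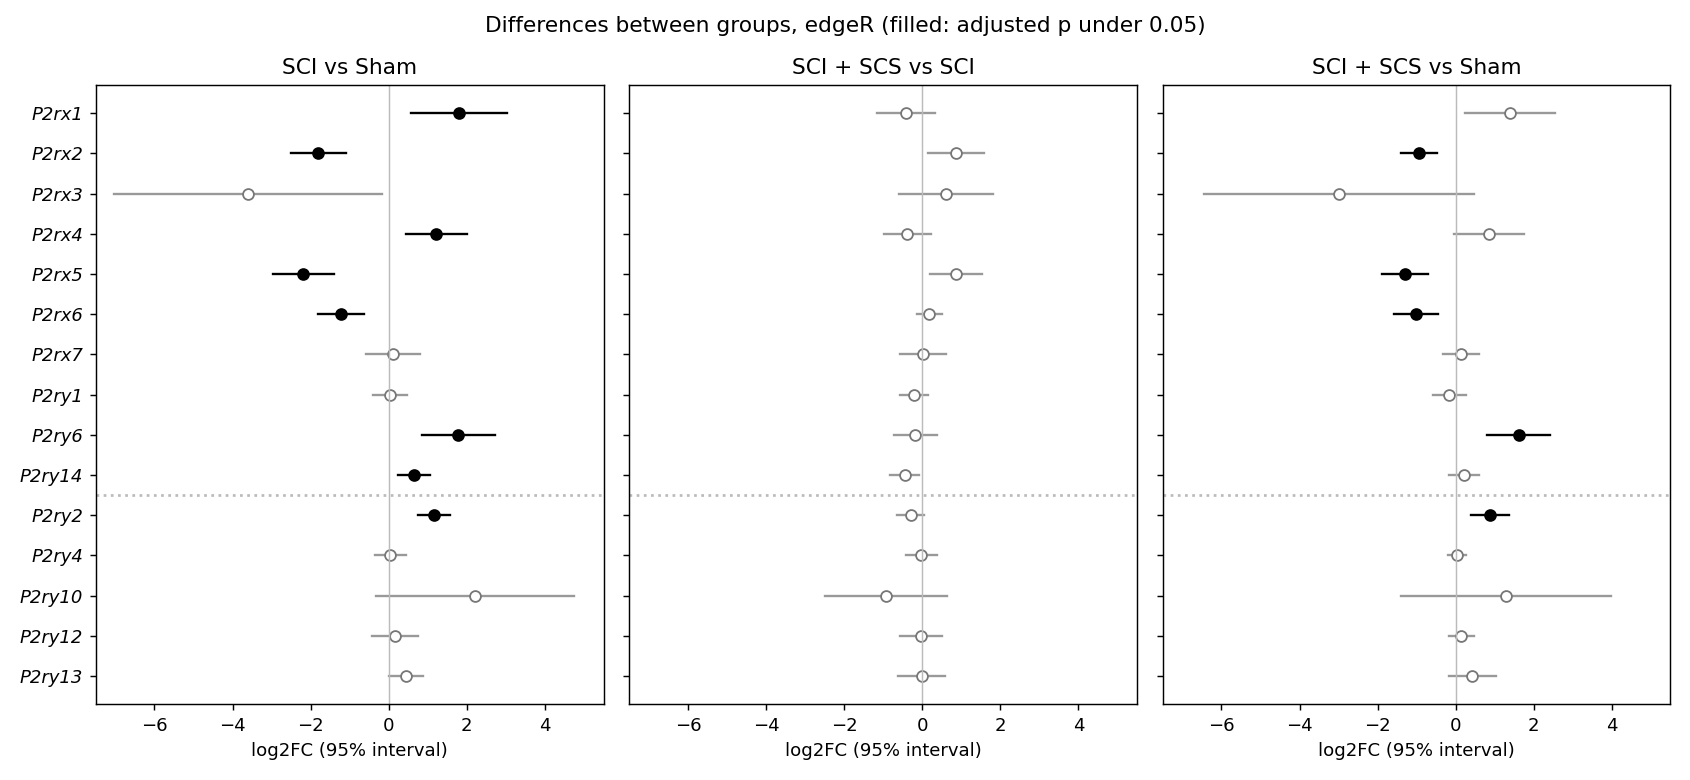
Log2FC (points) with 95% intervals (lines) of the 10 receptors, above the dotted line, and of 5 other P2Y receptors, below it, in each of the 3 comparisons (panels). Filled points passed at an adjusted p under 0.05 in edgeR; there are 7 among the 10 receptors for SCI against Sham, 0 for SCI + SCS against SCI and 4 for SCI + SCS against Sham.

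Of the channels known from immune cells, P2rx4 and P2rx1 rose and P2rx7 did not pass. P2rx4, the microglial channel tied to pain hypersensitivity after nerve injury, was at 11.5, 24.8 and 26.9 CPM in Sham and at 54.2, 55.3 and 39.1 CPM in SCI. Every SCI library lay above every Sham library, a 2.33-fold difference (log2FC 1.22, SE 0.33, edgeR adjusted p = 0.0211). Without SCI replicate 1 or 2 its adjusted p became 0.0589 or 0.0664, with log2FC of 1.15 and 1.12. P2rx1, a fast-desensitizing channel of smooth muscle, platelets and some leukocytes, was at 0.377, 1.08 and 1.40 CPM in Sham and at 3.01, 4.67 and 2.40 CPM in SCI. It had the lowest mean FPKM of the channels in Sham cords and rose 3.48-fold (log2FC 1.8, SE 0.51, edgeR adjusted p = 0.0263). Its call was lost without Sham replicate 2 (log2FC 1.89, adjusted p = 0.0706), SCI replicate 1 (1.87, 0.0511) or SCI replicate 2 (1.47, 0.0838). Over all alternatives the adjusted p ranged from 0.000902 to 0.0664 for P2rx4 and from 0.00157 to 0.0838 for P2rx1. P2rx7, the channel that triggers interleukin-1β release at high ATP, was at 8.17, 9.72 and 12.7 CPM in Sham and at 9.62, 15.4 and 8.08 CPM in SCI. The groups overlapped, with a log2FC of 0.10 (95% interval -0.59 to 0.79, edgeR adjusted p = 0.789).

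The channels of neurons P2rx2, P2rx5 and P2rx6 fell. P2rx2 was at 3.60, 3.49 and 3.10 CPM in Sham and at 0.787, 1.36 and 0.809 CPM in SCI, 3.48-fold lower (log2FC -1.8, SE 0.29, edgeR adjusted p = 0.00398). P2rx5 was at 6.67, 5.58 and 3.86 CPM in Sham and at 1.57, 0.880 and 1.13 CPM in SCI, 4.55-fold lower (log2FC -2.19, SE 0.32, edgeR adjusted p = 0.00299). P2rx5 thus had the largest fall of the receptors that passed, although it stands 144.2 kb from P2rx1, which rose. P2rx6, a subunit that works mainly in heteromers with P2X2 or P2X4, was at 26.1, 16.6 and 14.2 CPM in Sham and at 8.21, 9.07 and 7.41 CPM in SCI. It was 2.33-fold lower (log2FC -1.22, SE 0.25, edgeR adjusted p = 0.00814), and no SCI library reached the Sham range for any of these 3 channels. All 3 passed with every library left out in turn.

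P2rx3, the channel of nociceptive sensory neurons, was at 1.49, 57.7 and 2.196 CPM in Sham and at 1.64, 1.12 and 2.36 CPM in SCI. The high value belongs to Sham replicate 2, the library with the sensory neuron markers, which had 5078 of the 6255 counts of P2rx3 over all 9 libraries. The fitted log2FC was -3.61 (SE 1.44, edgeR adjusted p = 0.076), and without that library it was -0.14 (adjusted p = 0.807). With Sham replicate 1 or 3 left out instead, the log2FC was -4.16 or -4.14 and passed, at adjusted p = 0.0373 and 0.0439, in a range over all alternatives of 0.0373 to 0.807. In the SCI + SCS group P2rx3 was at 1.77, 1.39 and 4.62 CPM, highest in the library with the smaller excess of Scn10a. The part of sensory neuron RNA in these values was not tested. Ssrp1, which overlaps P2rx3, was at 82.9 CPM in Sham replicate 2 and at 86.5 and 98.0 CPM in the other Sham libraries.

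Of the P2Y receptors, P2ry6 and P2ry14 rose and P2ry1 did not pass. P2ry6, the UDP receptor that triggers phagocytosis in microglia, was at 4.20, 6.39 and 10.8 CPM in Sham and at 31.7, 26.3 and 16.6 CPM in SCI, 3.44-fold higher (log2FC 1.78, SE 0.39, edgeR adjusted p = 0.0107). It passed with every library left out in turn. P2ry14, the receptor for UDP-glucose and other UDP-sugars, was at 3.77, 3.41 and 4.06 CPM in Sham and at 6.51, 6.07 and 5.30 CPM in SCI. Its libraries did not overlap, with a log2FC of 0.65 (SE 0.17, edgeR adjusted p = 0.0204). The call was lost without Sham replicate 2 (log2FC 0.58, adjusted p = 0.0794), SCI replicate 1 (0.59, 0.0527) or SCI replicate 2 (0.63, 0.0564), with a range of 0.00122 to 0.0794 over all alternatives. Med12l, which overlaps P2ry14 on the other strand, moved the opposite way, with a log2FC of -1.89 (edgeR adjusted p = 0.00352). P2ry1, an ADP receptor that signals through Gq, was at 14.8, 18.3 and 12.6 CPM in Sham and at 13.5, 16.7 and 17.2 CPM in SCI. The groups overlapped and the log2FC was 0.03 (95% interval -0.40 to 0.46, edgeR adjusted p = 0.895).

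Among 5 other P2Y receptors of the table, 1 rose and 4 did not pass. P2ry2, a receptor for ATP and UTP that lies 31.1 kb from P2ry6 on chromosome 1, was at 10.6, 12.6 and 16.4 CPM in Sham and at 28.4, 32.5 and 28.8 CPM in SCI (log2FC 1.16, SE 0.17, edgeR adjusted p = 0.00303). P2ry12, the ADP receptor that marks resting microglia, was at 30.4, 23.8 and 32.0 CPM in Sham and at 41.9, 33.8 and 21.6 CPM in SCI (log2FC 0.16, adjusted p = 0.624). P2ry13, its neighbour on chromosome 2, had a log2FC of 0.43 (adjusted p = 0.0874). P2ry10, with at most 81 counts in a library, had a log2FC of 2.21 (adjusted p = 0.124), which passed without Sham replicate 3 at 3.91 (adjusted p = 0.0346, range over the alternatives 0.0346 to 0.287). P2ry4 stood on 2 rows and overlapped Arr3, so its log2FC of 0.04 is uncertain.

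Stimulation was compared with injury alone over 17663 genes. None of the 10 receptors passed the edgeR test in either direction (adjusted p between 0.129 and 0.968), where 0.00566% of all genes passed as higher and 0% as lower. At an unadjusted p under 0.05, 3 receptors differed, P2rx2, P2rx5 and P2ry14, as did 24.2% of all genes. Their libraries did not overlap between the groups, which held for 29.5% of all genes. DESeq2 called 1 receptor, P2rx5, and 15.7% of the 16503 genes it tested. The median log2FC of the receptors was -0.08, and that of all genes -0.006.

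P2rx5 was at 1.57, 0.880 and 1.13 CPM in SCI and at 2.05, 2.44 and 2.02 CPM in SCI + SCS, a log2FC of 0.87 (SE 0.28, 95% interval 0.21 to 1.53, edgeR adjusted p = 0.129, DESeq2 adjusted p = 0.0454). P2rx2 was at 0.787, 1.36 and 0.809 CPM in SCI and at 1.501, 1.83 and 1.99 CPM in SCI + SCS, a log2FC of 0.86 (SE 0.31, edgeR adjusted p = 0.154). P2ry14 was at 6.51, 6.07 and 5.30 CPM in SCI and at 4.48, 3.97 and 4.61 CPM in SCI + SCS, a log2FC of -0.45 (SE 0.16, edgeR adjusted p = 0.152). For each of these 3 the mean of SCI + SCS lay between the means of SCI and Sham. The same held for P2rx1, P2rx4, P2rx6 and P2ry6, and not for P2rx7 and P2ry1. For P2rx3 it held only through Sham replicate 2, at 57.7 CPM. The other Sham libraries had 1.49 and 2.196 CPM of P2rx3, below its SCI + SCS mean of 2.59 CPM, and its SCI mean was 1.70 CPM. The share of all genes with such an intermediate mean was not counted, and the SCI libraries enter both differences. This order of the means is therefore a description only. Over the alternatives the adjusted p of P2rx5 ranged from 0.0454 to 0.354. P2rx4 was at 39.4, 49.5 and 24.7 CPM in SCI + SCS, a log2FC of -0.38 (95% interval -0.99 to 0.23). P2rx1 was at 2.46, 3.15 and 1.85 CPM, a log2FC of -0.43 (-1.17 to 0.32). P2ry6 was at 18.9, 24.5 and 22.3 CPM, a log2FC of -0.18 (-0.72 to 0.37). For these 3 receptors the SCI + SCS libraries overlapped those of SCI. P2rx6 was at 9.23, 8.65 and 10.01 CPM (log2FC 0.18, -0.14 to 0.51). P2rx7 was at 9.61, 11.7 and 12.2 CPM (log2FC 0.02, -0.57 to 0.61). P2ry1 was at 15.8, 12.01 and 12.8 CPM (log2FC -0.21, -0.57 to 0.15). The P2rx3 log2FC was 0.61, and -0.11 without SCI + SCS replicate 3.

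Stimulated injured cords were also set against Sham cords over 17640 genes; this comparison shares its libraries with the other comparisons. P2ry6 was higher and P2rx2, P2rx5 and P2rx6 were lower, 1 and 3 of the 10 receptors, while 16.2% of all genes passed as higher and 16.2% as lower. The libraries did not overlap for 5 receptors, as for 53.2% of all genes. P2ry6 had a log2FC of 1.62 (SE 0.34, edgeR adjusted p = 0.016), P2rx5 of -1.30 (SE 0.24, adjusted p = 0.012), P2rx6 of -1.03 (SE 0.24, adjusted p = 0.0208) and P2rx2 of -0.93 (SE 0.19, adjusted p = 0.0155). Beside these, the same receptors had 1.78, -2.19, -1.22 and -1.8 in SCI against Sham. P2rx1 did not overlap either, with 1.38 (SE 0.48, adjusted p = 0.0681 in edgeR and 0.0205 in DESeq2), and P2rx4 overlapped, with 0.85 (SE 0.37, adjusted p = 0.123). P2ry14, P2rx7 and P2ry1 had 0.22, 0.13 and -0.17, and none of them passed. P2rx3 had -2.98 (adjusted p = 0.152), and 0.49 without Sham replicate 2.

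These calls were close to the threshold. The count of 4 fell to 1 without Sham replicate 2, SCI + SCS replicate 1 or SCI + SCS replicate 2, and to 3 without SCI + SCS replicate 3. P2rx6 lost its call without any of these 4 libraries (adjusted p between 0.054 and 0.076), and P2rx5 without SCI + SCS replicate 1 (0.0517). P2rx2 lost it without Sham replicate 2 (0.0573), SCI + SCS replicate 1 (0.054) or SCI + SCS replicate 2 (0.0516). P2ry6 lost it without Sham replicate 2 (0.0652) or SCI + SCS replicate 2 (0.0546). P2rx1 passed without Sham replicate 3, at a log2FC of 1.76 (0.0426). P2ry2, at 0.88 (adjusted p = 0.0229), lost its call without Sham replicate 2 (0.0826), SCI + SCS replicate 1 (0.0757) or SCI + SCS replicate 3 (0.0525). Each of these receptors kept its direction in these fits. Over all alternatives the adjusted p ranged from 8.64e-05 to 0.0736 for P2rx2, 1.25e-05 to 0.055 for P2rx5, 0.00031 to 0.076 for P2rx6, 2.28e-05 to 0.0652 for P2ry6, 0.0205 to 0.178 for P2rx1 and 0.00097 to 0.0876 for P2ry2.

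The make-up of the channel family was described by the share of each gene in the summed FPKM of the 7 P2X genes. P2rx4 made up 23.6, 32.1 and 49.9% of it in Sham, 76.4, 71.8 and 72.2% in SCI and 67.8, 70.7 and 53.4% in SCI + SCS. P2rx6 made up 46.9, 17.9 and 22.6% in Sham, 9.99, 10.2 and 11.9% in SCI and 13.8, 10.7 and 18.1% in SCI + SCS. In Sham replicate 1 the leading channel was thus P2rx6, and in the other libraries it was P2rx4, nearly level with P2rx3 at 32.05% in Sham replicate 2. P2rx7 took between 6.24 and 11.5% in Sham and between 6.31 and 9.83% in SCI.

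**Figure D3:**
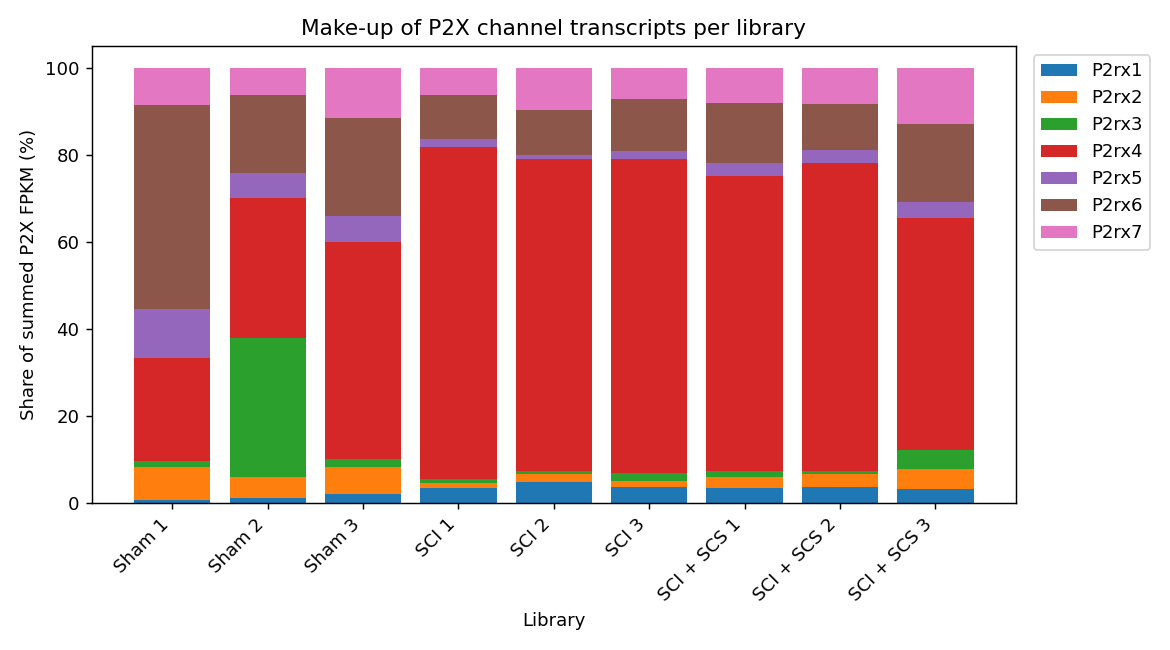
Share of each P2X gene (colours) in the summed FPKM of the 7 genes (vertical axis, %) in each of the 9 libraries (bars). P2rx4 takes 71.8 to 76.4% in the SCI libraries, and P2rx3 takes a large share only in Sham replicate 2.

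Cell type markers moved with the receptors, and their part in the receptor differences was not tested. All 10 neuron markers fell after contusion, and their summed level was 4974 to 11100 CPM in Sham, 760 to 2580 in SCI and 2328 to 3904 in SCI + SCS. P2rx2, P2rx5 and P2rx6 were lower in the injured groups, as the neuron sum was. The oligodendrocyte sum was lower there too, and 5 of 6 of its markers fell after contusion. It was 58210 to 81770 CPM in Sham, 17130 to 32650 in SCI and 30230 to 35870 in SCI + SCS. Within Sham both P2rx5 and P2rx6 had their highest value in replicate 1, the library with the highest neuron sum. In the other groups the order differed: in SCI the neuron sum was highest in replicate 1, where P2rx5 was highest, P2rx2 was lowest and P2rx6 was below replicate 2. In SCI + SCS it was highest in replicate 3, where P2rx2 and P2rx6 were highest and P2rx5 was lowest. Of the 7 macrophage markers measured 6 rose, with sums of 277 to 342 CPM in Sham, 1492 to 2473 in SCI and 1157 to 1490 in SCI + SCS. Spp1, the marker that did not pass, made up most of the Sham sums, at 315, 232 and 199 CPM. The Sham level of the sum and its order between Sham libraries therefore mainly describe Spp1. Of the 6 microglia markers tested 2 rose, with sums of 338 to 478, 603 to 888 and 692 to 906 CPM, and Siglech was at 0 in 8 of the 9 libraries. P2rx4 and P2ry6 had their lowest SCI value in replicate 3, the SCI library with the lowest microglia sum, and their lowest Sham value in replicate 1, the Sham library with the lowest one. In SCI + SCS the microglia sum was lowest in replicate 1, as P2ry6 was, while P2rx4 was lowest in replicate 3. For P2rx1, smooth muscle and pericyte markers summed to 202 to 330 CPM in Sham, 398 to 599 in SCI and 360 to 462 in SCI + SCS, and 5 of 6 rose. Platelet markers summed to 2.37 to 5.29, 34.6 to 66.7 and 18.7 to 35.8 CPM. Pf4, which macrophages also express, and Itga2b made up nearly all of these sums, with 0.645 to 2.59 CPM of Pf4 and 1.73 to 2.63 CPM of Itga2b in Sham, and Ppbp, Gp9 and Gp6 had at most 0.125 CPM. T cell markers summed to 22.0 to 58.1, 128 to 192 and 109 to 146 CPM, most of it Cd4, which macrophages of the rat also express, and 5 of 6 rose. Markers of further cell types rose after contusion as well, among them 3 of 5 Schwann cell, 3 of 5 neutrophil and 2 of 3 adipocyte markers tested. The adipocyte markers that rose were Fabp4 and Cfd, with log2FC of 6.4 and 3.86. Plin1 did not pass (log2FC -0.33, edgeR adjusted p = 0.604). Adipoq, Cidec and Lep were not tested in edgeR, with at most 21, 25 and 0 counts in a library. The adipocyte result therefore rests on Fabp4 and Cfd only. Between SCI + SCS and SCI, the median log2FC was 0.98 for the neuron markers, -0.66 for the macrophage markers, 0.05 for the microglia markers and -1.76 for the T cell markers. In that comparison 0 of 10 neuron, 0 of 7 macrophage, 0 of 6 microglia and 0 of 6 T cell markers passed in edgeR. Of them 4, 5, 0 and 4 had an unadjusted p under 0.05, and 4, 5, 0 and 3 passed in DESeq2. Other lists moved too: the astrocyte, oligodendrocyte and skeletal muscle markers had medians of 0.58, 0.47 and -7.16. In these lists 0 passed in edgeR, 5 of 6, 4 of 6 and 6 of 7 had an unadjusted p under 0.05, and 4, 4 and 7 passed in DESeq2. After contusion 3 of 6 astrocyte markers fell and 0 rose.

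**Figure D4:**
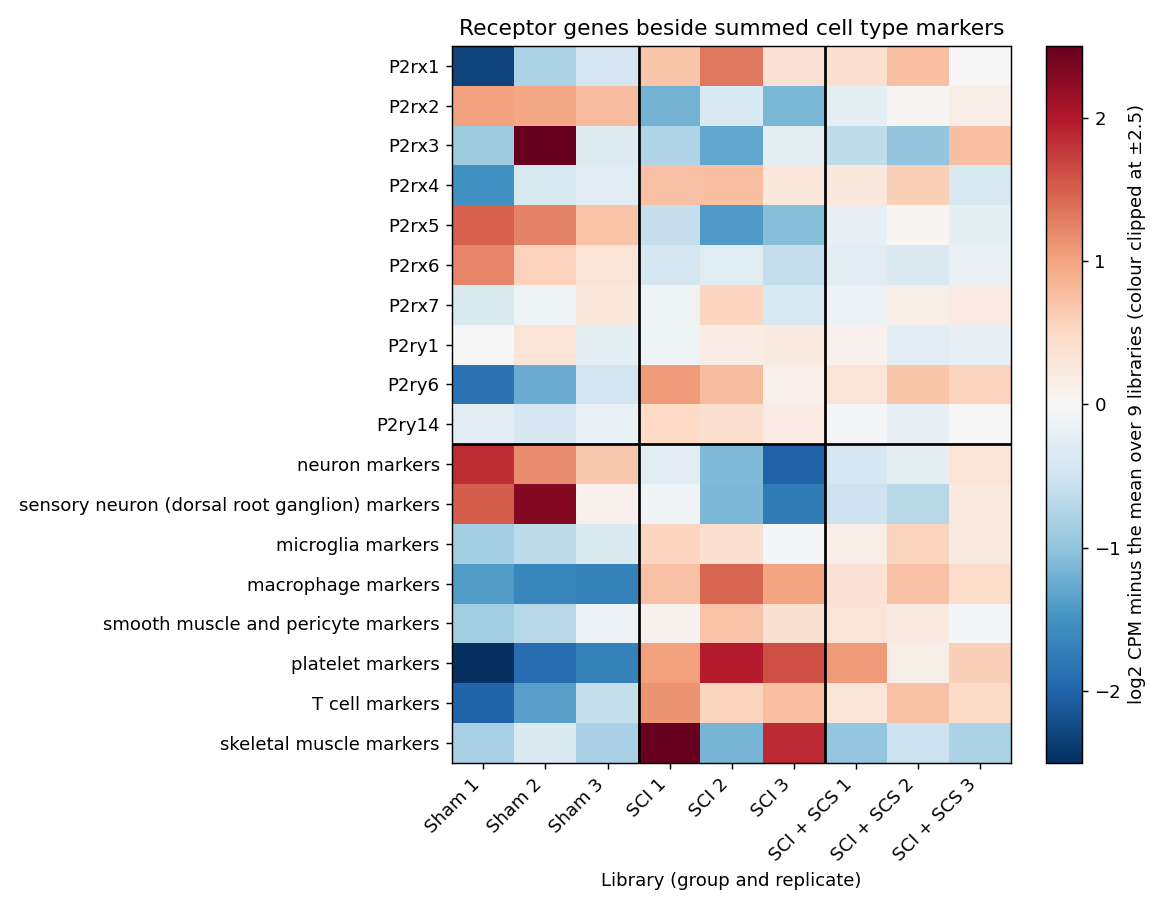
Log2 CPM of the 10 receptors (upper rows) and of the summed markers of 8 cell types (lower rows) in each library, as the difference from the row mean over 9 libraries (colour, clipped at the ends). P2rx2, P2rx5 and P2rx6 are high in the Sham libraries, as the neuron sum is, while P2rx1, P2rx4 and P2ry6 are low there, as the macrophage sum is.

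The wider pathway was described by 68 other genes, of which 64 were tested after contusion. Of these, 27 rose, 15 fell and 22 did not pass, with a median log2FC of 0.37. Of all genes tested, 24.3% passed as higher and 25% as lower, and these shares also stand beside the counts per list below. The 8 genes of the P2X7 and inflammasome list all rose, while P2rx7 itself had a log2FC of 0.10. Pycard, the adaptor of the inflammasome, had a log2FC of 2.5 (adjusted p = 0.00422), with 2.61 to 7.58 CPM in Sham and 22.3 to 33.7 CPM in SCI. Casp1, which cleaves interleukin-1β, had 2.02 (adjusted p = 0.00124). Tmem176b, a cation channel described as a brake on the inflammasome, had 1.97 (adjusted p = 0.00224). The list around microglial P2X4 had 4 genes that rose and 2 that fell. Irf8, a transcription factor that drives P2rx4 in microglia, had 1.89 (adjusted p = 0.0043) and Fn1, the matrix protein fibronectin, 1.92 (adjusted p = 0.0141). Slc12a5, the neuronal chloride exporter KCC2, fell with -2.08 (adjusted p = 0.0057).

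Of 9 ATP release genes 4 rose and 2 fell. Slc17a9, the vesicular nucleotide transporter, had a log2FC of 2.30 (adjusted p = 0.00287) and was at 0.841 to 1.58 CPM in Sham and 4.15 to 7.12 CPM in SCI. Calhm6 and Calhm2, of a family of large-pore channels, had 4.07 (adjusted p = 0.0133) and 2.10 (adjusted p = 0.00173), Calhm6 from at most 0.183 CPM in Sham. Of 13 nucleotide breakdown genes tested, 5 rose and 5 fell. Enpp3, an ectonucleotidase, had 2.97 (adjusted p = 0.00555) and Ada, which turns adenosine into inosine, 2.55 (adjusted p = 0.0201). Entpd3, which breaks down ATP and ADP, fell with -2.55 (adjusted p = 0.00327). Of the 4 adenosine receptors 0 rose and 1 fell, Adora1, the inhibitory A1 receptor, with -1.64 (adjusted p = 0.00167). Of 6 uptake and phosphorylation genes 2 rose and 1 fell, with 1.28 for the nucleoside transporter Slc28a2, 0.68 for Slc29a3 and -0.92 for adenosine kinase, Adk. Of 12 Gq and Gi signalling genes 3 rose and 4 fell. Plcb2, the phospholipase of blood cells, had 2.53 (adjusted p = 0.00122), and the neuronal Plcb1 and the Gi subunit Gnai1 had -1.53 (adjusted p = 0.00506) and -2.44 (adjusted p = 0.00104).

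Between SCI + SCS and SCI, 0 of these 64 genes passed in edgeR, 26 had an unadjusted p under 0.05 and 19 passed in DESeq2, beside 24.2% and 15.7% of all genes; 1 passed in edgeR without SCI replicate 2. The inflammasome list had log2FC of -1.1 to -0.11, 6 of 8 at an unadjusted p under 0.05 and 5 of 8 in DESeq2. Adora1 had 0.67 (edgeR adjusted p = 0.0979, DESeq2 0.00837), Slc12a5 1.07 (0.113, 0.00586), Entpd3 1.25 (0.115, 0.00988), Gnai1 0.95 (0.0804, 0.000447) and Ada -1.28 (0.109, 0.00381). Between SCI + SCS and Sham, 21 rose and 12 fell, where 16.2% of all genes passed as higher and 16.2% as lower. The count of 33 was between 16 and 39 with 1 library left out. It was 16 without Sham replicate 2, and 18, 20 and 21 without SCI + SCS replicate 1, 2 and 3.

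**Figure D5:**
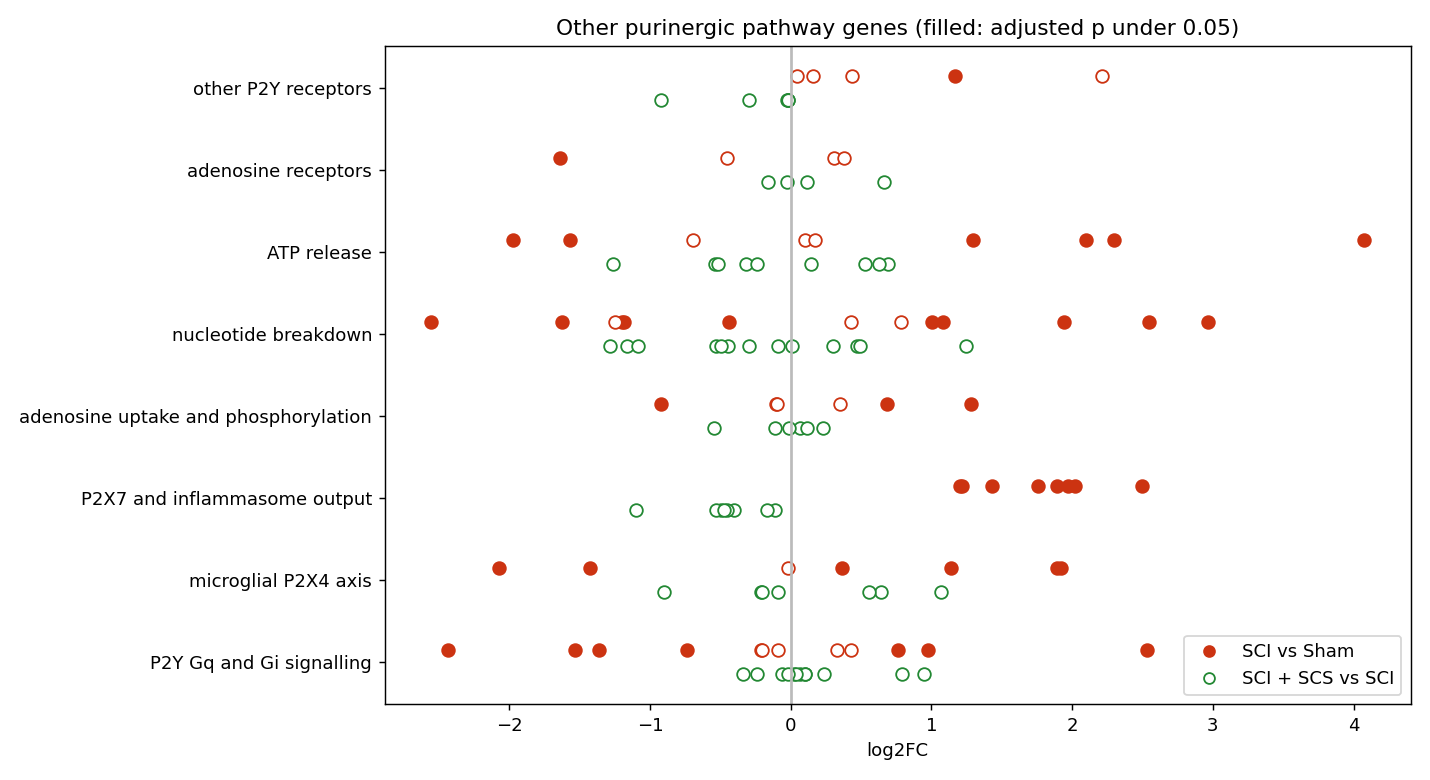
Log2FC (horizontal axis) of the other purinergic pathway genes by list (vertical axis) for SCI against Sham (red) and SCI + SCS against SCI (green); filled points passed at an adjusted p under 0.05 in edgeR. All 8 inflammasome genes are filled and above 0 for SCI against Sham, and no green point is filled.

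For the 4 receptors with the most counts, the genes with the most similar pattern over the 9 libraries were found among 16676 genes, by the root mean square difference of centred log2 CPM. For P2rx4 they were Cdca8 (0.177), Rubcnl (0.212) and Tpt1l2 (0.219), where P2rx4 itself spanned 2.27 on that scale. For P2ry6, which spanned 2.91, they were Fgd2 (0.172), C2h1orf162 (0.176) and Fgr (0.183), the last a kinase of myeloid cells. For P2rx6, which spanned 1.81, they were Armcx2 (0.101), Mapk9 (0.108) and Sanbr (0.133). For P2ry1, which spanned 0.60, they were Cacna1c (0.106), B3gnt2 (0.109) and Hdlbp (0.129). The 9 libraries share their group means, so these distances describe the libraries only.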

How the data were processed

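RNA from 9 spinal cord libraries, 3 per group, was selected by its poly(A) tail and read as paired ends. The processing notes of the submitters name fastp 0.23.2, HISAT2 2.2.1 and build mRatBN7.2; the counting program is not given in the sources used here. The authors deposited raw counts per gene, without normalization, and FPKM values, scaled for the length of each gene and the depth of each library. Groups came from the labels, which name a single batch. The labels describe each library as a rat, and p-values measure the spread between these libraries.

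From the counts, groups were compared by the quasi-likelihood test of edgeR 4.0.16 under R 4.3.3 (TMM scaling, default filter on low counts, 6 libraries per comparison, no covariate), with Benjamini-Hochberg adjustment over all genes tested. The SE was the |log2FC| divided by the square root of F. DESeq2 1.42.0 was an alternative, and the methods of the study name DESeq2 in a later release. Limma 3.58.1 on log2(FPKM + 1) and log2(FPKM + 0.1), for a mean FPKM of at least 0.1, was another. Fold changes on those log2 FPKM scales understate changes of low genes. Other alternatives were no filter, at least 10 counts in every library, DESeq2 size factors, the replicate block, a joint fit of all 9 libraries, muscle and adipocyte genes removed before TMM, 1 library left out and, chosen after seeing the data, robust edgeR. The default edgeR fit, DESeq2 and limma on log2(CPM + 1) were also run on simulated counts with known changes. The other alternatives were not run on simulated counts.

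The receptors and lists were chosen with earlier results of these data known. All 10 receptors, 5 other P2Y receptors, at most 3 genes per list that passed with the largest |log2FC| after contusion, and the 3 genes most similar to each of the 4 receptors with the most counts were named; overlapping genes and marker genes were named where a result turns on them. Library totals were 62844376 to 88358570 counts. Floors at the level of 3 counts cover counting error only, since reads copied by PCR were not marked by molecule. The intervals of log2FC were built on the SE of the edgeR fit, so they include the spread between libraries. With 3 against 3, an exact permutation test cannot give a p under 0.1.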

Additional observations from a re-analysis of the deposited data

How the results depend on the processing

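Of the 741 values of single receptors under an alternative, 675 kept their direction and their side of the threshold, 25 kept the direction and lost the call, 9 gained one and 32 changed sign. The number of receptors called after contusion was 7 in the reported fit, 7 or 8 in the other fits that left out no library, 6 with the study's |log2FC| threshold added, and 4 to 8 with 1 library left out, at 4 without SCI replicate 1 or SCI replicate 2. For SCI + SCS against SCI it was 0 in every fit except DESeq2, which called 1, and for the other pathway genes 19 in DESeq2 and 0 to 1 with 1 library left out. For SCI + SCS against Sham the 4 receptors became 1 to 5 with 1 library left out, and the 33 pathway genes became 15 with the study's |log2FC| threshold and 16 to 39 with 1 library left out. No scaling moved the median of all genes by over 0.1.

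Replicate numbers did not pair the rats: correlations of same-numbered deviations lay between -0.33 and 0.24, and libraries correlated best with their own number in 4, 0 and 0 of 6. With the replicate block, 7, 0 and 1 receptors and, for SCI + SCS against Sham, 13 pathway genes were called, the 1 receptor being P2ry6. The block gave P2ry12 0.03 for SCI + SCS against SCI, and FPKM gave it 0.10, 0.11 and 0.10 with the pseudocounts 1, 0.1 and 1 without a filter.

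With 1 library left out, log2FC changed sign only for receptors that passed in no reported fit of that comparison. They ranged, for SCI + SCS against SCI, from -0.11 to 0.91 for P2rx3, -0.17 to 0.33 for P2rx7, -0.25 to 0.19 for P2ry12, -0.30 to 0.18 for P2ry13, -0.20 to 0.06 for P2ry4 and -0.41 to 0.02 for P2ry6. They ranged, for SCI + SCS against Sham, from -3.69 to 0.49 for P2rx3, 0.00 to 0.32 for P2rx7 and -0.04 to 0.07 for P2ry4. They ranged, for SCI against Sham, from -0.23 to 0.28 for P2rx7, -0.10 to 0.18 for P2ry1, -0.07 to 0.37 for P2ry12 and -0.06 to 0.21 for P2ry4. In DESeq2, P2rx3 got no adjusted p against Sham. The cause was not tested for any of these.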

Other observations

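The second row of P2ry4 was at 7.86, 5.97 and 5.79 CPM in Sham, 18.1, 10.4 and 12.2 CPM in SCI and 14.5, 15.02 and 10.7 CPM in SCI + SCS, while the row described in the report was at mean levels of 20.2, 21.1 and 20.6 CPM in the 3 groups. No test was made on the second row. Med12l, the gene that overlaps P2ry14, was at 8.95, 8.64 and 5.56 CPM in Sham, 2.26, 2.55 and 1.49 CPM in SCI and 2.96, 4.16 and 3.09 CPM in SCI + SCS.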
